A study of Arabidopsis thaliana with 6 samples.

Results

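Genes that build, break down and convert starch and sucrose were compared between wild-type Arabidopsis thaliana and ara6-1, labelled as a knock-out mutant of the plant-specific RAB5 GTPase ARA6, a small protein of endosomal membrane traffic. The genes were 9 in number: APL3, APL4, SBE2.2, PTST (AT5G39790), PWD, AMY1, DPE1, SPS4F and the invertase gene AT1G62660. They were chosen by name, with earlier results of these data known, out of 16405 genes that a tested probe set named alone and RefSeq held. Each of the 9 was represented by 1 probe set. The name PWD stood on 2 probe sets of different genes, so genes were matched by locus, and PWD here is AT5G26570. The series, titled for a role of ARA6 in starch and sugar homeostasis, held Affymetrix whole-transcript arrays of 3 samples of the wild type (WT, accession Columbia) and 3 of ara6-1. Each array measured total RNA of whole plants, 14 days old, kept for 1 day at 4 °C and then on MS plates at 23 °C under light without a dark period. No plants in darkness and no second mutant line were among the 6 samples. Values are log2 of the deposited probe set intensity unless another scale is given.

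In leaves, starch is laid down in the plastid while there is light and is broken down at night, and sucrose is the form in which the carbon travels to roots and young tissues. ADP-glucose pyrophosphorylase makes the glucose donor of starch, starch synthases and branching enzymes build the granule, and glucan dikinases, amylases and a disproportionating enzyme take it apart. Sucrose is made by way of sucrose-phosphate synthase in the cytosol and split by invertases or sucrose synthases.

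The ARA6 transcript (AT3G54840) checked the labels. It stood at 7.99, 8.40 and 8.34 in the WT arrays and at 6.98, 7.15 and 6.89 in the ara6-1 arrays. All 3 mutant arrays lay below all WT arrays, and a signal remained in the mutant. The difference, 2.35-fold, missed the threshold over all probe sets (limma, adjusted p = 0.140). Array medians of the linear intensity ran from 28.8 to 29.2 over 28501 tested probe sets. WT replicate 3 and ara6-1 replicate 1 differed more from their groups than the remaining arrays did, with SDs of their deviations from the group means of 0.169 and 0.165 over probe sets above the median intensity, against 0.120 to 0.126 for the other 4. The deviations of these 2 arrays correlated at r = 0.289 across 14250 probe sets, which are not independent replicates. The samples were whole plants, and measured markers of root and of leaf gave signal on every array. The summed linear intensity of the 2 measured root markers of 7 listed was 4777 to 4903 in WT and 5065 to 5307 in ara6-1, without overlap, and most of it was PYK10 (AT3G09260). That of the 3 measured leaf markers of 11 listed was 6376 to 7089 in WT and 6790 to 7118 in ara6-1, with overlap. No measured marker was at 0.

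None of the 9 genes passed the threshold of an adjusted p of 0.05 between the genotypes (limma with Benjamini-Hochberg adjustment over all probe sets). Over the whole array 0.0105% of probe sets passed, 2 higher and 1 lower in the mutant. The adjusted p values of the 9 genes ran from 0.552 for SBE2.2 to 0.988 for PWD, and 1 of the 9 had an unadjusted p under 0.05, against 9.01% of all probe sets. The fitted differences (log2 fold changes, ara6-1 minus WT) ran from -0.14 for PTST to 0.22 for APL4 and SBE2.2. Of the 9, 7 were positive and 2 negative, with a median of 0.07, while the median over all probe sets was -0.0018 and 49.6% were positive. Disregarding sign, the median size was 0.12 for the 9 genes and 0.12 for all probe sets. In 3 of the 9 genes the groups did not overlap, SBE2.2 and APL3 higher and PTST lower in ara6-1, where 15.7% of all probe sets had groups apart. Since the 9 genes were chosen with earlier results of these data known, these shares are a description only. An exact permutation test of 3 arrays against 3 cannot give a two-sided p below 0.10. The arrays come from whole plants, so fewer cells of a type and less RNA per cell cannot be told apart. The labels speak of biological replicates and do not say how these were kept separate, so the p-values measure the spread between these samples.

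Gene by gene, the intervals give the range of differences in intensity that the fit could not settle. The 95% interval of all 9 genes lay within a 2-fold difference in either direction, as did that of 96.6% of all probe sets. For 7 of them it lay within 1.5-fold in either direction, against 72.8% of all probe sets. The exceptions were AMY1, whose interval ran from 0.623 to 1.64 as a ratio of ara6-1 to WT, and APL4, whose interval ran from 0.909 to just over 1.5. A p that misses the threshold does not show that the genotypes were alike, and 3 arrays a group could not settle differences inside these bounds.

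**Figure D1:**
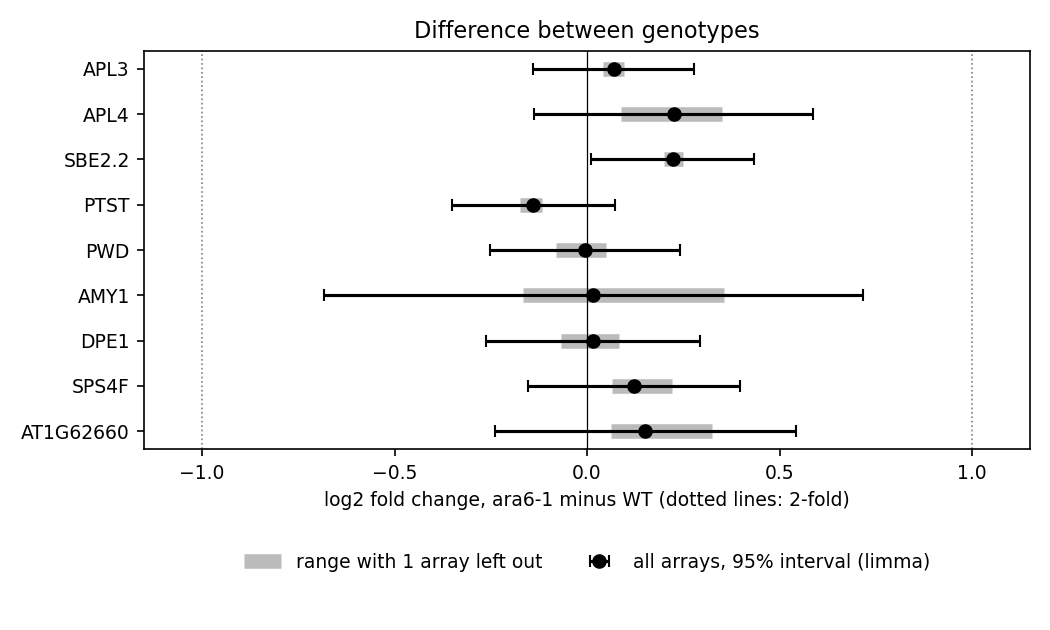
Log2 fold change, ara6-1 minus WT, of each of the 9 genes (horizontal axis), with the 95% interval from limma as a black bar and the range of the value with 1 array left out as a grey bar. All intervals lie inside the dotted 2-fold lines, and the interval of SBE2.2 (0.01 to 0.43) is the one that does not cross 0.

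Starch synthesis begins with ADP-glucose pyrophosphorylase, and APL3 and APL4 encode large, regulatory subunits of that enzyme, forms known mainly from non-photosynthetic tissues and from sugar-fed leaves. APL3 (AT4G39210) stood at 6.04, 6.03 and 6.02 in WT and at 6.16, 6.10 and 6.04 in ara6-1. The 3 WT arrays were nearly equal, and the lowest mutant array was above the highest WT array by only 0.0044. The group means were 6.03 ± 0.01 and 6.10 ± 0.06 (SD, n = 3 each), and the fitted difference was 0.07 (SE 0.09, 95% interval from -0.14 to 0.28; limma, adjusted p = 0.820). The whole span over the 6 arrays was 1.10-fold.

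APL4 (AT2G21590) was more variable. Its values were 5.44, 5.21 and 4.92 in WT and 5.27, 5.40 and 5.57 in ara6-1. The groups overlapped, since WT replicate 1 lay above 2 of the mutant arrays. The means were 5.19 ± 0.26 and 5.41 ± 0.15 (SD, n = 3 each), and the fitted difference was 0.22 (SE 0.15; limma, adjusted p = 0.674). The value depended on single arrays, being 0.09 without WT replicate 3 and 0.35 without WT replicate 1. The fitted differences of APL4 and SBE2.2 were the same in size, but only in SBE2.2 did the arrays fall apart by genotype.

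SBE2.2 (AT5G03650), a starch branching enzyme that adds the side branches of amylopectin, had the smallest p of the 9 genes. It stood at 8.59, 8.67 and 8.60 in WT and at 8.79, 8.85 and 8.89 in ara6-1. All mutant arrays were above all WT arrays, with a gap of 0.12 between the groups. On the linear scale the intensities were 385.4, 407.6 and 388.3 in WT and 443.6, 460.3 and 475.0 in ara6-1. The means were 8.62 ± 0.04 and 8.84 ± 0.05 (SD, n = 3 each), and the fitted difference was 0.22 (SE 0.09, 95% interval from 0.01 to 0.43), which is 1.17-fold with an interval of 1.01 to 1.35. The unadjusted p was 0.0415 and the adjusted p was 0.552 in limma. The spread of SBE2.2 within the groups was small, with a pooled SD of 0.05, and 2.86% of probe sets had a smaller one. The moderated SE of 0.09 was larger than the SE of 0.04 from its own arrays alone. With an unmoderated test the unadjusted p was 0.00426, and it was 0.00627 where limma's prior variance followed intensity, but neither passed over all probe sets (adjusted p = 0.452 without moderation and 0.328 in limma with that prior). Leaving out the lowest 25% of probe sets gave an unadjusted p of 0.0292, and array weights gave 0.0310, both also smaller (limma). The unadjusted p was larger with arrays centred on their medians (0.0446) and with all rows of the table (0.0480, limma). It was also larger after renewed quantile normalization (0.0515) and with the replicate number as a block (0.0865, limma). Without both WT replicate 3 and ara6-1 replicate 1 it was 0.0660, and without 1 array 0.0438 to 0.117 (limma). Without each of the 6 arrays in turn the log2 fold change was 0.20 to 0.25. The root marker PYK10, also higher in all 3 mutant arrays, had a log2 fold change of 0.11, and the leaf marker LHCB4.1 (AT5G01530), likewise higher in all 3, had 0.17 (limma, adjusted p = 0.727 and 0.634). In the other 3 measured markers the groups overlapped, with 0.10 for the root marker EXPA7 and 0.08 and 0.00055 for the leaf markers SBPASE and RCA. The part of the markers in the values of SBE2.2 and APL3 was not tested.

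PTST (AT5G39790) is not itself an enzyme but a carbohydrate-binding protein that brings the granule-bound starch synthase to its granule. It stood at 5.98, 6.0 and 6.03 in WT and at 5.84, 5.93 and 5.82 in ara6-1. All mutant arrays were below all WT arrays, with a gap of 0.05. The means were 6.0 ± 0.02 and 5.86 ± 0.06 (SD, n = 3 each), and the fitted difference was -0.14 (SE 0.09, 95% interval from -0.35 to 0.07; limma, adjusted p = 0.659). WT was 1.10-fold above ara6-1 in this fit. The sign was negative in all 15 alternative settings, with values between -0.17 and -0.11. As for SBE2.2, the moderated SE was larger than the SE from its own arrays alone, which was 0.04 for PTST and 0.03 for APL3. With an unmoderated test the unadjusted p of PTST was 0.0205, which did not pass over all probe sets (adjusted p = 0.515). The 4 synthesis genes did not share a sign.

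**Figure D2:**
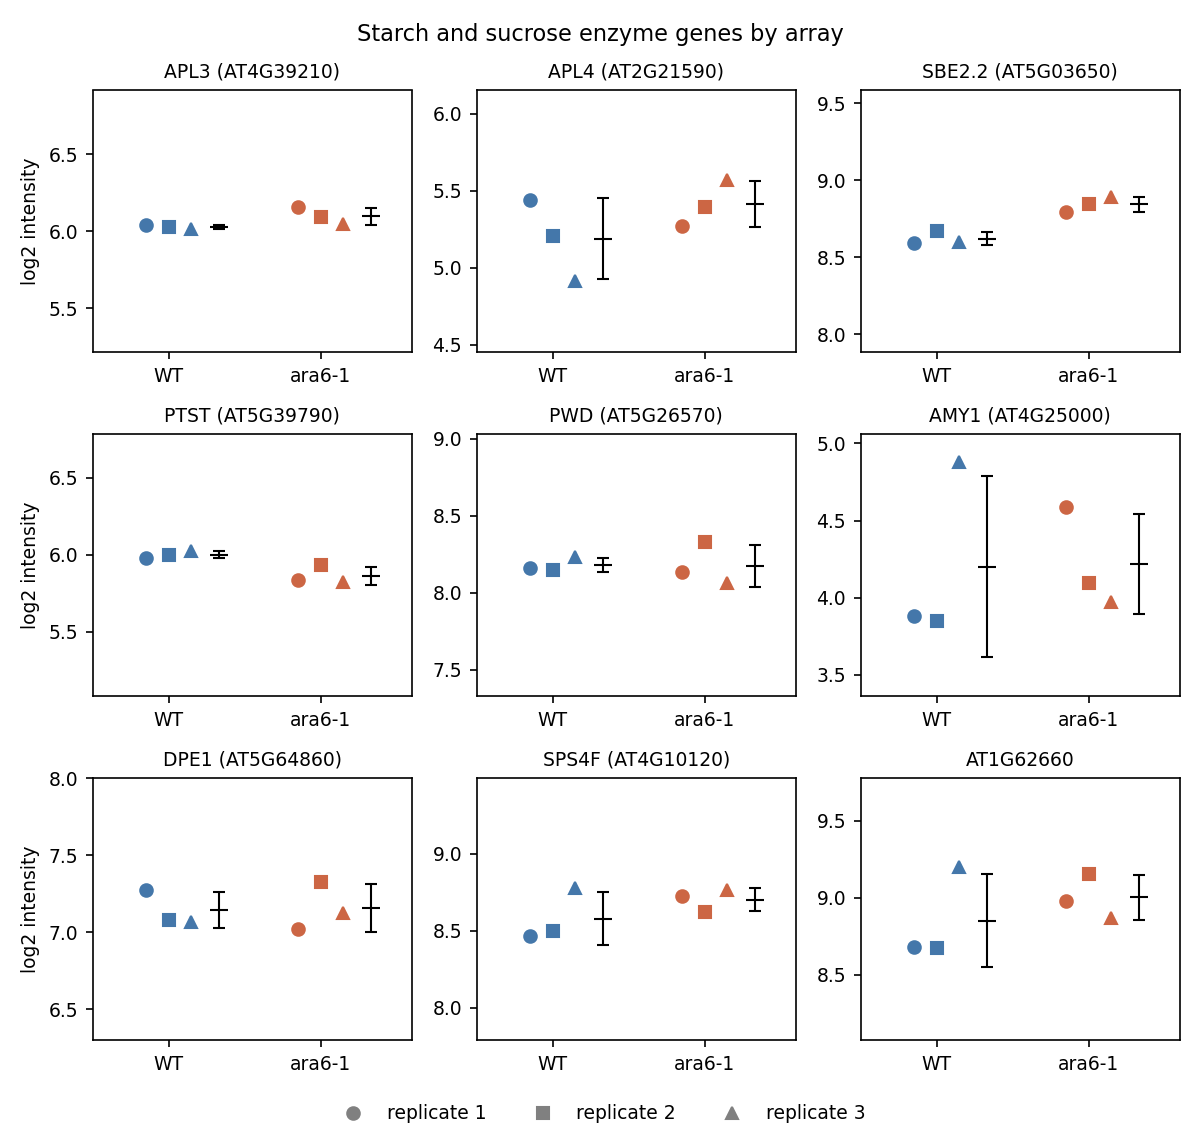
Log2 intensity (vertical axis) of the 9 genes in 3 WT arrays (blue) and 3 ara6-1 arrays (orange), with symbols for the replicate number and, at the right of each group, the mean with its SD. Every panel spans the same number of log2 units, so the tight groups of APL3, SBE2.2 and PTST can be seen beside the wide groups of AMY1, where WT replicate 3 and ara6-1 replicate 1 are the highest arrays.

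Starch degradation was represented by PWD, DPE1 and AMY1, and in all 3 genes the groups overlapped. PWD (AT5G26570), the phosphoglucan water dikinase that acts on glucans already phosphorylated at another position, stood at 8.16, 8.15 and 8.23 in WT and at 8.13, 8.33 and 8.07 in ara6-1. The highest and the lowest of the 6 arrays were both mutant arrays. Its means were 8.18 ± 0.05 and 8.18 ± 0.14 (SD, n = 3 each), and the fitted difference was -0.01 (95% interval from -0.25 to 0.24; limma, adjusted p = 0.988).

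DPE1 (AT5G64860) encodes the plastidial disproportionating enzyme, which rearranges the short malto-oligosaccharides left by other enzymes. It stood at 7.28, 7.08 and 7.07 in WT and at 7.02, 7.33 and 7.13 in ara6-1. The mutant arrays again held both extremes. The fitted difference was 0.02 (SE 0.12, 95% interval from -0.26 to 0.29; limma, adjusted p = 0.976). The signs of PWD and DPE1 turned under several alternatives, so no direction is given for either gene.

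AMY1 (AT4G25000), an alpha-amylase that is secreted from the cell rather than sent to the plastid, varied most. It stood at 3.88, 3.85 and 4.88 in WT and at 4.58, 4.1 and 3.97 in ara6-1. WT replicate 3 and ara6-1 replicate 1, the arrays that stood apart over probe sets above the median intensity, were the 2 highest. AMY1 itself lay below that median. The span over all arrays was 2.04-fold. On the linear scale the intensities were 14.4 to 29.4, while the 5th percentile of the arrays was 2.9 to 3.2. No detection call was used. The means were 4.2 ± 0.59 and 4.22 ± 0.32 (SD, n = 3 each), and the fitted difference was 0.02 (SE 0.30, 95% interval from -0.68 to 0.72; limma, adjusted p = 0.988). Its pooled SD of 0.47 was larger than that of 97.4% of probe sets. Among the 4 arrays other than those 2, the pooled SD was 0.06, and both mutant arrays were above both WT arrays. The log2 fold change was then 0.17 (limma, adjusted p = 0.512). It was 0.35 without WT replicate 3 alone and -0.17 without ara6-1 replicate 1 alone, and it was also negative without WT replicate 1 (-0.15) or WT replicate 2 (-0.16), so no direction is given for AMY1.

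Sucrose metabolism was represented by a gene of synthesis and a gene of cleavage. SPS4F (AT4G10120, named ATSPS4F in the probe table) encodes a sucrose-phosphate synthase. It stood at 8.47, 8.50 and 8.78 in WT and at 8.72, 8.62 and 8.76 in ara6-1. WT replicates 1 and 2 were below all mutant arrays, and WT replicate 3 was above all of them. The means were 8.58 ± 0.17 and 8.70 ± 0.07 (SD, n = 3 each), and the fitted difference was 0.12 (SE 0.12; limma, adjusted p = 0.761).

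The invertase gene AT1G62660 showed a like arrangement of arrays. It stood at 8.68, 8.67 and 9.20 in WT and at 8.98, 9.16 and 8.87 in ara6-1. Here too WT replicates 1 and 2 were the lowest arrays and WT replicate 3 was the highest. The means were 8.85 ± 0.30 and 9.0 ± 0.15 (SD, n = 3 each), and the fitted difference was 0.15 (SE 0.17; limma, adjusted p = 0.795). Without WT replicate 3 the log2 fold change was 0.33 for AT1G62660 and 0.22 for SPS4F, without a call in either gene (limma, adjusted p = 0.472 and 0.537). Other arrays moved the values the other way. AT1G62660 was at 0.06 without WT replicate 1 or WT replicate 2 and at 0.07 without ara6-1 replicate 2, and SPS4F was at 0.07 without WT replicate 1 and 0.08 without WT replicate 2.

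The spread between arrays of 1 genotype was unequal among the 9 genes. Their median pooled SD was 0.13, against 0.17 for all probe sets. APL3, PTST and SBE2.2, the genes whose groups did not overlap, had the smallest pooled SDs, 0.04 to 0.05. In 7 of the 9 genes WT replicate 3 was the WT array farthest from its group mean. It lay above that mean in 5 genes, by 0.68 in AMY1, 0.35 in AT1G62660 and 0.20 in SPS4F, and below it by 0.27 in APL4. Among mutant arrays, ara6-1 replicate 2 was the farthest in 5 genes, replicate 1 in 3 and replicate 3 in 1. ara6-1 replicate 1 deviated by 0.37 in AMY1 but by only -0.02 in AT1G62660 and 0.02 in SPS4F.

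**Figure D3:**
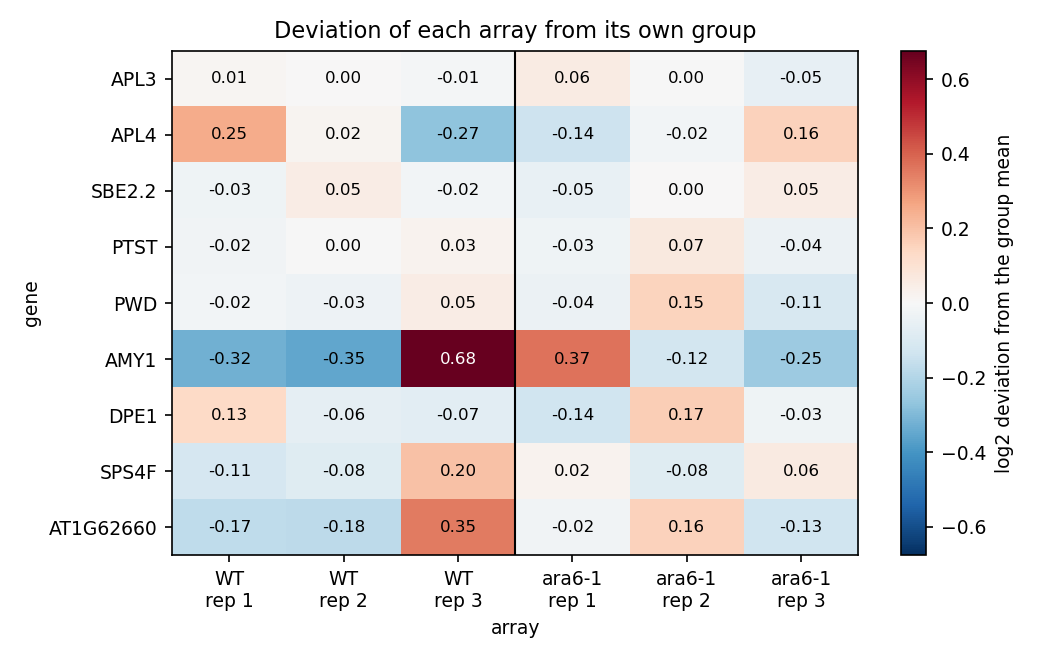
Deviation of each array (horizontal axis) from the mean of its own group, on the log2 scale, for the 9 genes (vertical axis). The column of WT replicate 3 holds the largest deviation, 0.68 in AMY1, and the rows of APL3, SBE2.2 and PTST stay within 0.07 of their group means.

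The other genes of these pathways came from 6 lists with 131 entries, of which 27 were measured under a gene name, the 9 genes included. None of the other 18 passed the threshold in limma either, and 2 had an unadjusted p under 0.05, against 9.01% of all probe sets. Of these 18, 13 had positive and 5 negative log2 fold changes, with a median of 0.09, where 49.6% of all probe sets were positive. In 3 the mutant arrays were all above and in 1 all below the WT arrays, against 7.81% and 7.85% of all probe sets. The lists too were chosen with earlier results of these data known, so these shares are a description only. By list, 10 of 30 entries were measured for starch synthesis, 4 of 26 for starch degradation, 3 of 12 for sucrose synthesis, 2 of 25 for sucrose cleavage, 8 of 16 for the use of hexoses and 0 of 22 for trehalose metabolism. The median log2 fold changes of these measured genes, the 9 included, were 0.09 for starch synthesis, 0.02 for starch degradation and 0.01 for sucrose synthesis. They were 0.27 for sucrose cleavage, from 2 genes, and 0.10 for the use of hexoses. The 2 genes were AT1G62660 (0.15) and cwINV6 (AT5G11920, 0.39), the latter annotated by RefSeq also as a fructan exohydrolase. AT3G54270, whose value is the sucrose synthesis median, lay in the lowest 25% of probe sets by mean intensity. So did AT1G06030 and AT4G10260 among the hexose entries. The measured genes do not stand for their pathways, since the other entries were not measured under a gene name. Of the tested probe sets, 11053 were unnamed here, and whether the missing entries lie among them was not tested.

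In starch degradation the smallest p belonged to the second carrier of the name PWD, AT4G24450, which RefSeq also lists as ATGWD2, another glucan water dikinase gene. It stood at 4.61, 4.67 and 4.83 in WT and at 5.08, 5.34 and 5.12 in ara6-1. All mutant arrays were above all WT arrays. The fitted difference was 0.48 (95% interval from 0.20 to 0.75; limma, adjusted p = 0.506), beside the -0.01 of PWD itself.

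In starch synthesis the other measured genes lay between -0.0027 and 0.21. The smallest p belonged to AT5G03420, entered in the list as PTST3, at a difference of 0.21 (limma, adjusted p = 0.598). AT1G27070, entered as PTST2, had 0.12 (limma, adjusted p = 0.758), so both related entries had the sign opposite to that of PTST. AT1G42430, entered as ESV1, and AT3G55760, entered as LESV, had 0.09 and 0.08 (limma, adjusted p = 0.782 and 0.822).

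Among genes of sucrose, cwINV6 (AT5G11920), listed with the cell wall invertases and annotated by RefSeq also as a fructan exohydrolase, had a fitted difference of 0.39 (95% interval from -0.06 to 0.84; limma, adjusted p = 0.586). Its groups overlapped. F2KP (AT1G07110), whose product makes and breaks the regulator fructose 2,6-bisphosphate, had -0.02 (limma, adjusted p = 0.963). AT3G54270, entered as a sucrose-phosphate phosphatase, had 0.01 (limma, adjusted p = 0.980). The genes of sucrose synthesis thus stayed between -0.02 and the 0.12 of SPS4F.

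Among entries for the use of hexoses, AT1G06020, entered as a fructokinase, had the lowest log2 fold change of all 27 genes. It stood at 4.18, 4.43 and 3.97 in WT and at 3.51, 3.92 and 3.47 in ara6-1, and the fitted difference was -0.56 (95% interval from -0.95 to -0.17; limma, adjusted p = 0.517). All mutant arrays were below all WT arrays, although ara6-1 replicate 2 came close to WT replicate 3. AT2G31390, also entered as a fructokinase, and AT5G42740, entered as the cytosolic phosphoglucose isomerase, were higher in all 3 mutant arrays, with 0.23 and 0.21 (limma, adjusted p = 0.571 for both). AT5G51830, another fructokinase entry, had 0.22 with overlapping groups (limma, adjusted p = 0.624).

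**Figure D4:**
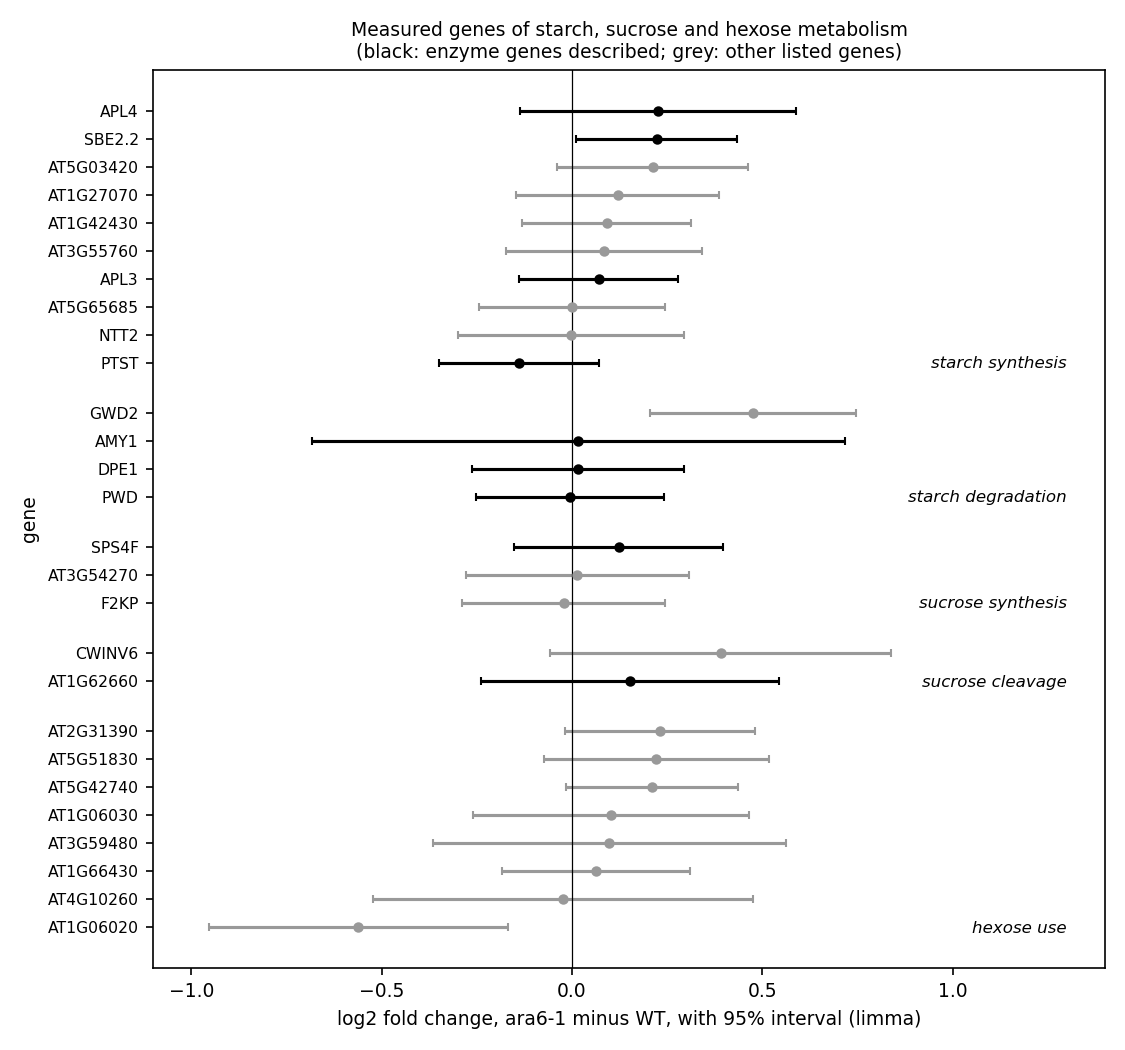
Log2 fold change, ara6-1 minus WT, with the 95% interval from limma (horizontal axis), of the 27 measured genes (vertical axis), grouped by list. The 9 genes described are in black and the other 18 in grey. Most values lie between -0.14 and 0.23, with AT4G24450 (GWD2 in the plot, 0.48), cwINV6 (CWINV6 in the plot, 0.39) and AT1G06020 (-0.56) outside that range.

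The 9 genes were also set beside their neighbours in the RefSeq annotation of TAIR10.1. Of the 18 protein-coding genes next to them on either side, 15 were measured, and none passed the threshold in limma. Of these 15, 3 had an unadjusted p under 0.05 and 5 had groups that did not overlap, against 9.01% and 15.7% of all probe sets. The gene next to SBE2.2, AT5G03660, was higher in all 3 mutant arrays, with a WT mean of 3.71 ± 0.18 and a mutant mean of 4.34 ± 0.24 (SD, n = 3 each), a fitted difference of 0.63 (limma, adjusted p = 0.506). Its other neighbour, AT5G03640, had 0.03. Both neighbours of APL3 had values opposite in sign to its own, -0.22 for AT4G39200 and -0.13 for ATRER1A. In both, all mutant arrays were below all WT arrays. AMY1 lies between ATGP4, with -0.35 (limma, adjusted p = 0.541), and the sugar exporter gene SWEET14, whose intensities lay near the 5th percentile of the arrays, so that its difference is not given. AT5G64850, beside DPE1, had -0.35 (limma, adjusted p = 0.517). In AT5G64850 and ATGP4, too, all mutant arrays were below all WT arrays. The neighbours did not share a sign with one another.

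Other genes had patterns over the 6 arrays close to those of SBE2.2 and APL3, as a description of 7251 named genes above the median intensity. Nearest to SBE2.2 were AT5G19960 with a Pearson r of 0.997 over the 6 arrays, PYK10 with 0.993 and the hexose transporter gene SWEET4 (AT3G28007) with 0.990. Their own log2 fold changes were 0.15, 0.11 and 0.85. Nearest to APL3 were AT4G39140 with r = 0.991, the stromal ascorbate peroxidase gene SAPX (AT4G08390) with 0.991 and AT3G57810 with 0.990. Among so many genes, 195 had an r above 0.9 with SBE2.2 and 63 with APL3, and the arrays share the difference between genotypes, so such values carry no test.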

How the data were processed

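The authors deposited linear intensities, a value for each probe set on each array. Per the submitters' processing notes, Affymetrix Expression Console 1.3 produced them. How probes were summarized, and on which genome build, is not given in the sources used here, so no coordinates are given. Of 38408 rows, the 28501 written to 1 decimal or fewer were tested. The other 9907, of a kind no source used here states, were added only as an alternative. The arrays had nearly equal quantiles and were used without further normalization, as log2. Genes were named through the platform's probe table and RefSeq (TAIR10.1) by gene identifier: 16704 probe sets (58.6%) named 1 gene, 744 several and 11053 none.

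The test was limma's moderated fit (version 3.58.1, R 4.3.3) with lmFit and eBayes (two-sided, Benjamini-Hochberg over all tested probe sets, threshold 0.05). SE and intervals come from this moderated fit. The fit was checked on data simulated with independent noise on each array. Deviations shared between arrays, and differences as small as those of the 9 genes, were not part of that check. Precision was limited by 3 arrays a group. Alternatives changed the filter, normalization, prior variance, moderation, array weights, block, rows and arrays used. The 9 genes and the lists were chosen with earlier results of these data known. Genes named beside the 9 were up to 4 per list with the smallest p, direct neighbours, and the 3 nearest in pattern to SBE2.2 and APL3; the likeness to those genes used Pearson's r. AT4G24450 was one of these list genes. Neighbours, a comparison added after the files were read, were named after their values were seen. Sequences were not used here.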

Additional observations from a re-analysis of the deposited data

How the results depend on the processing

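None of the 9 genes passed the threshold in any of 15 alternative settings in limma or the unmoderated test, where 0 to 2 of the 9 had an unadjusted p under 0.05 and the smallest adjusted p was 0.328 (SBE2.2, with a prior variance that follows intensity). Probe sets passing over the whole array were 3 in the reported fit, 16 with that prior, 4 with the lowest 25% of probe sets left out and 4 with array weights, 2 with all rows of the table, 2 with the replicate block, 0 in the unmoderated test (where 2556 had an unadjusted p under 0.05), 1 with both WT replicate 3 and ara6-1 replicate 1 left out, and 2 to 4 without 1 array. The signs of APL3, APL4, SBE2.2, PTST, SPS4F and AT1G62660 held in all 15. Those of PWD, DPE1 and AMY1 did not. DPE1 was -0.0057 after quantile normalization again and -0.0680 to 0.0835 without 1 array. PWD was 0.0155 with array weights, 0.0411 with both arrays left out and -0.0819 to 0.0494 without 1 array. AMY1 was -0.17 to 0.35 without 1 array. The cause was not tested. Same-numbered WT and ara6-1 arrays had deviations correlated at -0.20, 0.17 and -0.15 over 14250 probe sets. With 3 arrays a group, these values cannot show whether equal numbers pair the samples, and the labels do not state it. With the replicate block SBE2.2 stayed at 0.22 (limma, adjusted p = 0.653) and 0 of the 9 genes passed. Averaging several probe sets of a gene was not run, since each gene had 1. Without a detection call, what signal over background limits was not tested.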
